A study of Mus musculus with 2 samples.

Results

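The insulin-like growth factor (IGF) family of the mouse adrenal gland is described here through 10 genes, chosen by name and not by any measured value, out of 43346 mouse genes in the gene tables. They are 2 ligands (Igf1 and Igf2), 2 receptors (Igf1r and Igf2r) and 6 binding proteins (Igfbp2, Igfbp3, Igfbp4, Igfbp5, Igfbp6 and Igfbp7). Poly(A) RNA longer than 200 nt from adrenal tissue of C57BL/6J mice, 8 weeks old, was sequenced as stranded pairs of 76 nt with added ERCC spike-in RNAs. The 2 libraries carry the labels biological replicate 1 and biological replicate 2 and form a single group, with no treatment and no second genotype. The animals are described as littermates of both sexes, and both libraries carry the same donor label but separate biosample labels, so the spread between them may be that of animals, pools or preparations. Adrenal identity was clear from all 6 cortex markers and all 5 chromaffin markers, which were detected at 1 TPM or more in both libraries.

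IGF1 and IGF2 are small secreted growth factors that act through the tyrosine kinase receptor encoded by Igf1r, upstream of PI3K and AKT. Igf2r encodes the cation-independent mannose 6-phosphate receptor, which takes up IGF2 for breakdown in lysosomes. IGF binding proteins hold the ligands in tissue fluid and plasma and set how much reaches the receptors, whereas the protein of Igfbp7 binds IGFs only weakly. Igf2 and Igf2r are imprinted genes in the mouse, and Igf2 is known as a strongly expressed gene of the fetal adrenal.

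The binding proteins are grouped by a cysteine-rich amino-terminal domain, and the members of the family differ in how much of it they share. The coding sequences (GENCODE transcripts, GRCm38) were searched for a stretch that encodes any residue, Cys, Gly, Cys, Cys, any 2 residues and Cys. It had 1 match in Igfbp2, Igfbp3, Igfbp4, Igfbp5 and Igfbp7 and no match in Igfbp6. The first residue of the matches was Gly, or Ala in Igfbp7. These stretches are shown because they are the part in which Igfbp7, the most abundant member, resembles the others. Capitals mark the cysteine codons.
Igfbp2: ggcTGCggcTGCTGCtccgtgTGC
Igfbp3: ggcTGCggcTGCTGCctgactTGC
Igfbp4: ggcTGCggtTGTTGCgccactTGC
Igfbp5: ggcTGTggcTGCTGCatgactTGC
Igfbp7: gcgTGCgggTGCTGCccggtgTGT
At the carboxy-terminal side the pattern was the other way round for Igfbp6 and Igfbp7. The stretch TGCtggTGTgtg, with the same 12 bases in Igfbp2, Igfbp3, Igfbp4, Igfbp5 and Igfbp6, had no match in Igfbp7. Over whole coding sequences, pairwise identity ran from 56.5% of the shorter sequence (Igfbp5 and Igfbp7) to 65.0% (Igfbp2 and Igfbp4). The coding sequences held 16 cysteine codons in Igfbp6 to 20 in Igfbp4, within 238 codons (Igfbp6) to 305 codons (Igfbp2).

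Binding-protein transcripts were far more abundant in the adrenal samples than ligand or receptor transcripts. Summed over the 6 binding proteins, the level was 10308 TPM in replicate 1 and 5959 TPM in replicate 2. TPM divides the reads of a gene by its length and then by the sum over all genes, so that levels of different genes can be set side by side. The ligands summed to 64.2 and 45.6 TPM, and the receptors to 37.5 and 46.5 TPM. Binding-protein transcripts thus exceeded ligand transcripts by 161 times in replicate 1 and by 131 times in replicate 2, and by 9.52 and 9.85 times when Igfbp7 was left out. These ratios depend on the short transcripts to which the deposited TPM assigns most ligand reads: with the length of each gene's longest transcript they were 1158 and 847 times, and 66.8 and 60.1 times without Igfbp7. The 10 genes held 1.05% of all mouse TPM in replicate 1 and 0.611% in replicate 2, or 0.0721% and 0.0546% without Igfbp7.

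**Figure D1:**
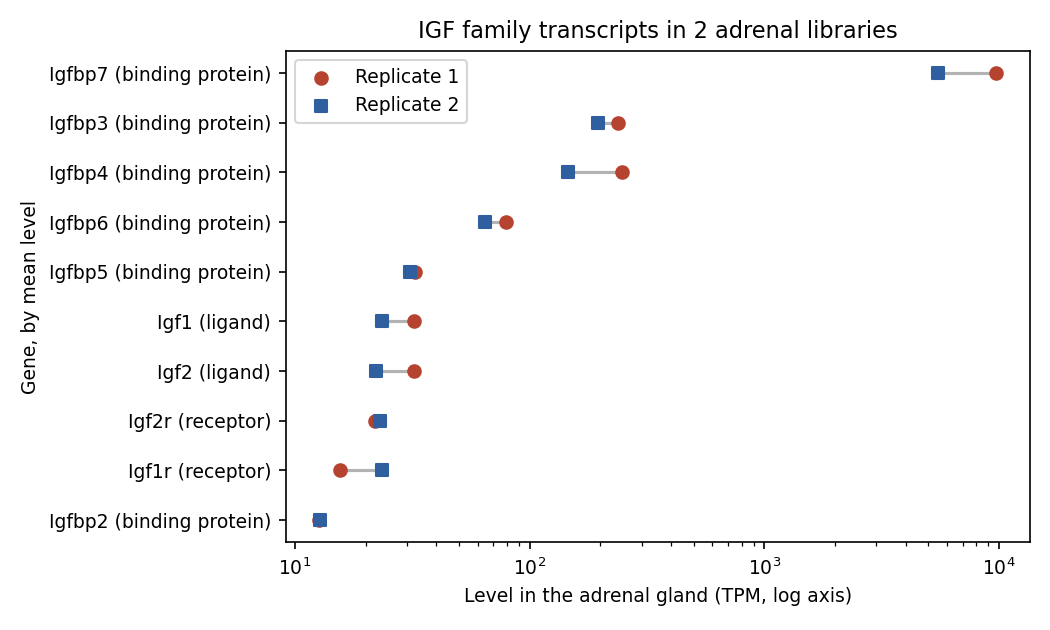
Levels of the 10 IGF family genes in TPM on a log axis, with 1 point for replicate 1 (circle) and 1 for replicate 2 (square), genes in the order of their mean. Igfbp7 stands apart from the rest at 9697 and 5510 TPM, while Igfbp5, the ligands and the receptors lie between 15.5 and 32.4 TPM.

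Igfbp7 (ENSMUSG00000036256.9, mm10 chr5:77349240-77408041, minus strand) encodes a secreted protein of the vessel wall and matrix that is also known as IGFBP-related protein. It had 9697 TPM in replicate 1 and 5510 TPM in replicate 2, a mean of 7604 ± 2961 TPM (SD, n = 2), from 311776 and 191136 expected counts. This placed it at rank 8 among the 12445 genes detected in both libraries. It made up 94.1% of the binding-protein TPM in replicate 1 and 92.5% in replicate 2, and its lower library still exceeded the higher library of every other member. By expected counts, which are not corrected for length, its mean share was 84.1%.

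Igfbp3 and Igfbp4 came next, with values that overlapped. Igfbp3 (ENSMUSG00000020427.7, chr11:7206086-7213923, minus strand) encodes the main IGF carrier of adult plasma, and stood at 238 and 195 TPM (217 ± 30.4 TPM). Igfbp4 (ENSMUSG00000017493.8, chr11:99041244-99054392, plus strand) encodes an inhibitory binding protein that the protease PAPP-A cuts, and stood at 248 and 146 TPM (197 ± 72.3 TPM). Igfbp4 was the higher of the pair in replicate 1 and Igfbp3 in replicate 2, at ratios of Igfbp4 to Igfbp3 of 1.04 and 0.748. Together they made up 79.6% and 75.9% of the binding-protein TPM other than that of Igfbp7.

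Igfbp6, Igfbp5 and Igfbp2 followed at lower levels. Igfbp6 (ENSMUSG00000023046.6, chr15:102144362-102149511, plus strand), whose protein prefers IGF2 over IGF1, had 79.3 and 64.5 TPM (71.9 ± 10.5 TPM) and did not overlap with Igfbp4 above it or Igfbp5 below it. Igfbp5 (ENSMUSG00000026185.8, chr1:72857932-72874884, minus strand), a conserved binding protein that also attaches to matrix, had 32.4 and 30.8 TPM (31.6 ± 1.15 TPM). Igfbp2 (ENSMUSG00000039323.14, chr1:72824503-72852474, plus strand), a binding protein of fetal tissues and plasma, had 12.7 and 12.8 TPM (12.8 ± 0.120 TPM) and was the lowest member in both libraries. Igfbp2 and Igfbp5 are neighbours on chromosome 1, with 5457 bases between them and opposite strands. Igfbp3 has a similar neighbour in Igfbp1, at 3539 bases on the opposite strand, and this gene of the liver and decidua had 0 counts in replicate 1 and 7 in replicate 2.

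The ligands were detected at similar TPM. Igf1 (ENSMUSG00000020053.14, chr10:87858265-87937042, plus strand) had 32.0 and 23.4 TPM (27.7 ± 6.07 TPM) from 574 and 493 expected counts. Igf2 (ENSMUSG00000048583.12, chr7:142650766-142666816, minus strand) had 32.2 and 22.2 TPM (27.2 ± 7.06 TPM) from 893 and 747 expected counts. The ratio of Igf2 to Igf1 was 1.00 in replicate 1 and 0.946 in replicate 2, a difference between the genes smaller than that between the libraries. These levels depended on the transcript lengths: the deposited TPM places most of each gene on short transcripts, with effective gene lengths in replicates 1 and 2 of 515 and 566 bases for Igf1 and of 798 and 907 bases for Igf2. The expected counts were divided instead by the length of the longest transcript of the gene and brought near the TPM scale, without a new sum over all genes. Igf1 then stood at a level of 2.41 and 1.93 and Igf2 at 5.67 and 4.43. On that scale they were the lowest and second lowest of the 10 genes, and Igf2 lay above Igf1 without overlap. Only for these 2 genes did that choice lower the mean level more than 1.5 times, by 12.8 times for Igf1 and 5.38 times for Igf2.

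Receptor transcripts were at deposited TPM levels close to those of the ligands. On the scale of longest-transcript lengths, the receptors summed to 36.9 and 46.0 and the ligands to 8.08 and 6.37. Igf2r (ENSMUSG00000023830.9, chr17:12682406-12769664, minus strand) had 22.0 and 23.1 TPM (22.5 ± 0.742 TPM) from 6477 and 7284 expected counts. Igf1r (ENSMUSG00000005533.9, chr7:67952827-68233668, plus strand) had 15.5 and 23.5 TPM (19.5 ± 5.62 TPM) from 2319 and 3753 expected counts. Igf2r exceeded Igf1r by 1.42 times in replicate 1, whereas the ratio was 0.982 in replicate 2. For Igf1r the annotation behind the counts held a transcript of 4489 nt, while the later release used for positions extends it to 11409 nt, so reads from the added part could not enter its count.

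In the order by mean level, 4 of the 9 adjacent pairs did not overlap between libraries: Igfbp7 over Igfbp3, Igfbp4 over Igfbp6, Igfbp6 over Igfbp5, and Igf1r over Igfbp2. The other 5 pairs overlapped, so no order can be read within Igfbp3 and Igfbp4, nor among neighbours in the run of Igfbp5, Igf1, Igf2, Igf2r and Igf1r. Replicate 2 placed Igf1r sixth and Igf2 ninth, whereas replicate 1 placed Igf2 sixth and Igf1r ninth.

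Transcript tables gave 38 annotated transcripts for the 10 genes, of which 23 were above 0 TPM in both libraries and 10 were listed at 0 in both. The same transcript led in both libraries for 9 genes, the exception being Igf2. In 7 genes the leading transcript took more than 90% of the gene's TPM in each library, and Igf1, Igf2 and Igfbp5 were the others. Both counts include Igf1r and Igfbp6, which have only 1 annotated transcript each, so their leader and its share were fixed in advance. Only the other 8 genes have more than 1 transcript. Such shares are estimates from reads that several transcripts have in common, and no counting interval covers that step.

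**Figure D2:**
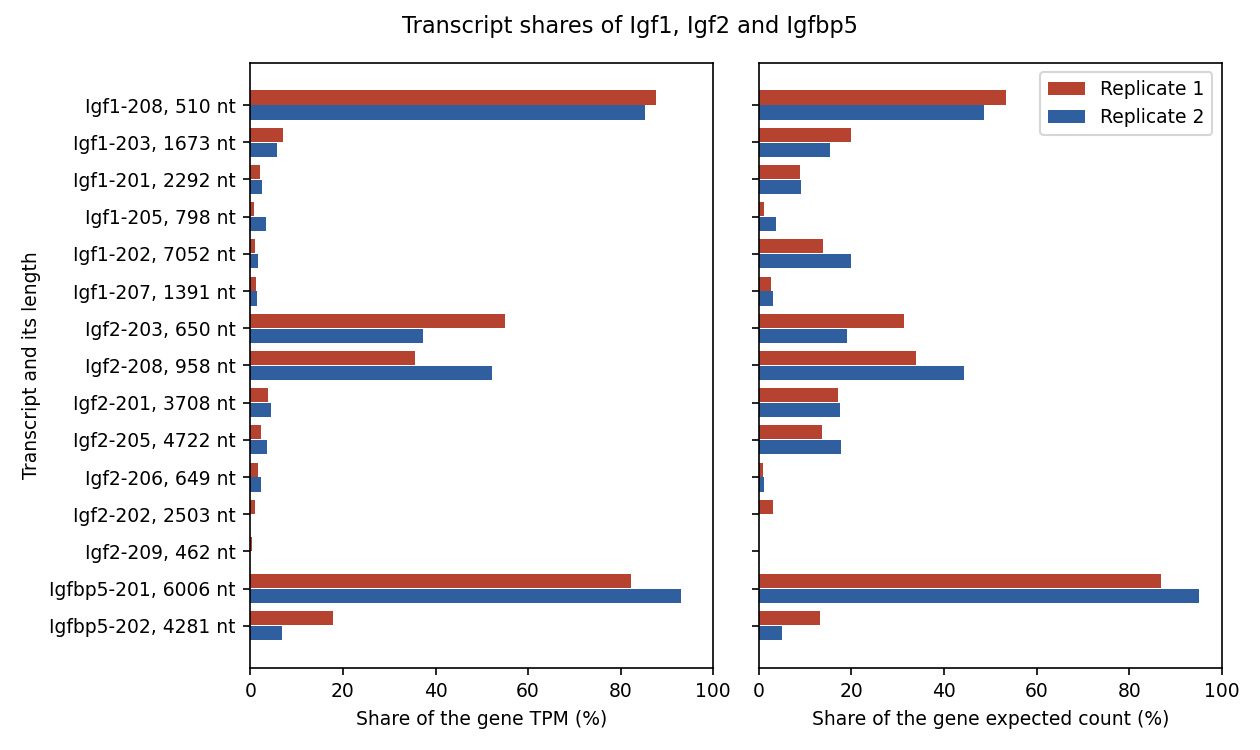
Share of each transcript of Igf1, Igf2 and Igfbp5 in the TPM of its gene (left) and in its expected count (right), in percent, for replicate 1 (red) and replicate 2 (blue). Transcripts above 0 in at least 1 library are drawn, and the short transcripts Igf1-208 and Igf2-203 take a larger share of TPM than of counts.

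For Igf1 the leading transcript was Igf1-208, a short model of 510 nt whose coding sequence is annotated as incomplete. It took 87.7% of Igf1 TPM in replicate 1 and 85.2% in replicate 2, but 53.5% and 48.7% of the expected counts. The longest transcript, Igf1-202 (7052 nt), took 1.06% and 1.66% of TPM and 13.9% and 20% of the counts. Most of the 7052 nt is a last exon of 6368 bases, so few reads per base fell on it.

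Igf1 transcripts differ at both ends, and the 3′ choice turns on an exon of 52 bases at chr10:87915298-87915349. In rodents, joining this exon to the last exon gives the Eb form of the IGF1 precursor, and skipping it gives the Ea form, with different carboxy-terminal peptides and the same mature hormone. The junction is printed from Igf1-203 and from Igf1-202 (GRCm38, plus strand), because the leading transcript ends in this exon. Capitals mark the exon.
Igf1-203, exon included: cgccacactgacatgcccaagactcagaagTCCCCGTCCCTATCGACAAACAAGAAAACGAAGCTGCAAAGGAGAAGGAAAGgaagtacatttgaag
Igf1-202, exon skipped: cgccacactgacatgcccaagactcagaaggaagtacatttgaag
Transcripts that hold the exon or an extension of it took 82.3% of Igf1 counts in replicate 1 and 73.2% in replicate 2. Those that end within it or its extension, Igf1-208 and Igf1-201, took 62.3% and 57.9%. Transcripts in which it is followed by the last exon took 19.9% and 15.3%, all from Igf1-203, and those that skip it took 17.7% and 26.8%. The included and skipped classes that reach the last exon therefore changed order between the libraries.

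At the 5′ end, Igf1 has a leader exon farther upstream, used in most tissues, and a leader exon nearer the shared coding exons, known from liver. Transcripts with the nearer leader exon or its last part took 63.4% of Igf1 counts in replicate 1 and 61.6% in replicate 2. Those with the farther leader exon took 36.6% and 38.4%. In the nearer class, Igf1-208 and Igf1-205 start upstream of that exon, at bases 87859611 and 87859490, and hold only its last part. The class therefore does not measure starts in the nearer leader exon. By TPM the nearer class took 90.8% and 91.1%. Igf1-208 alone supplied 53.5% and 48.7% of the gene's counts, so this division rests on where the reads of a short, incomplete model were placed.

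**Figure D3:**
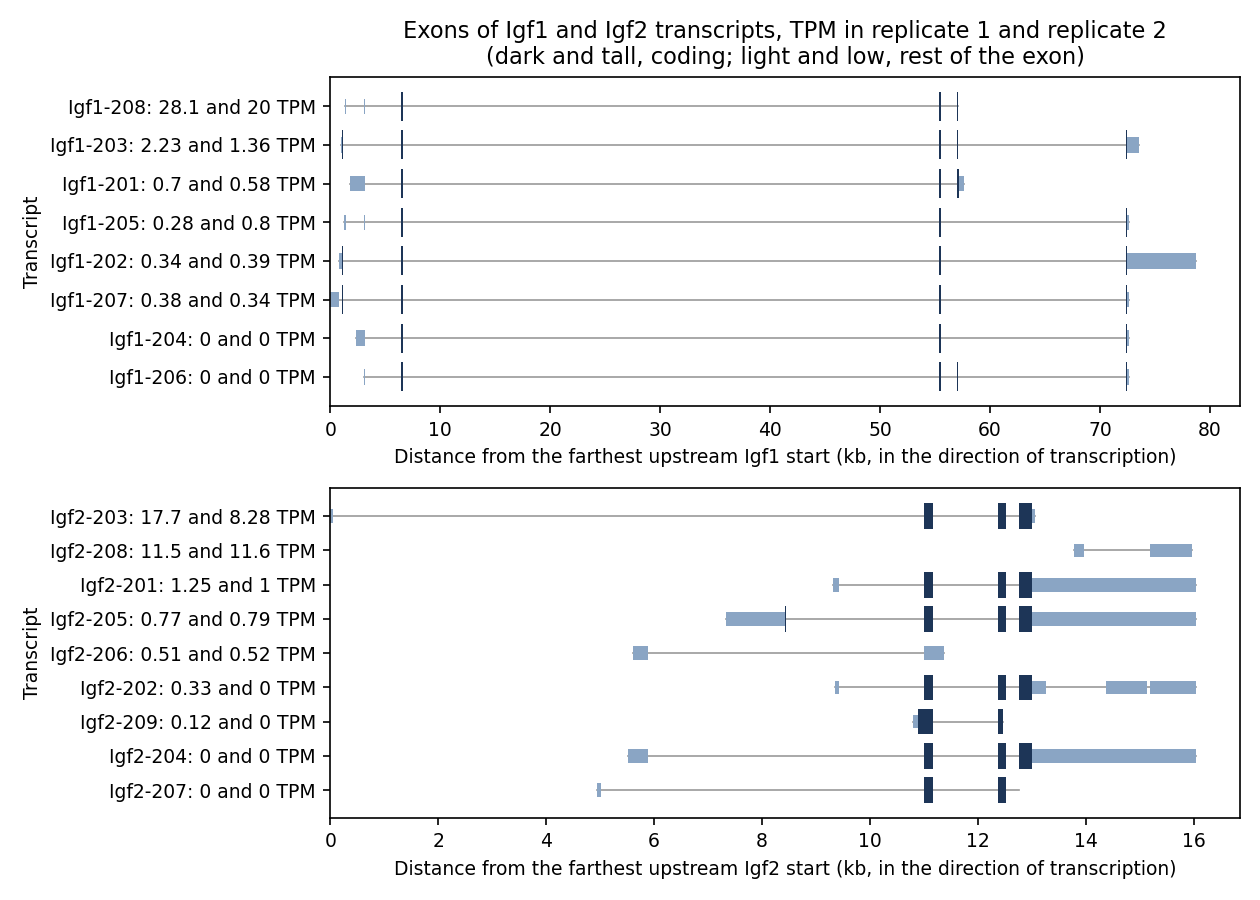
Exons of the annotated transcripts of Igf1 (top) and Igf2 (bottom) against the distance in kb from the farthest upstream start, coding parts dark and tall, other exon parts light and low, with the TPM in replicate 1 and replicate 2 beside each name. Igf1-208 at 28.1 and 20 TPM ends where the 52-base exon lies, and Igf2-208 at 11.5 and 11.6 TPM lies wholly in the final part of the gene.

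Igf2 was the gene whose leading transcript differed between libraries. Igf2-203 (650 nt, protein-coding), which starts farthest upstream at base 142666816 of chromosome 7, had 17.7 TPM in replicate 1 and 8.28 TPM in replicate 2, from 280 and 143 counts. Igf2-208 (958 nt, annotated without a coding sequence) had 11.5 and 11.6 TPM from 304 and 332 counts. Igf2-203 led in replicate 1 with 55.1% of Igf2 TPM, against 37.3% in replicate 2, and Igf2-208 had 35.6% and 52.2%. All 958 bases of Igf2-208 lie within exons of Igf2-201 and 0 of them in its coding part, so apart from reads across the splice junction of its 2 exons, its reads share their sequence with the last exon of Igf2-201. Igf2-203 likewise shares 609 of its 650 bases with Igf2-201, and the 41 bases of its first exon are its own.

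Full-length coding transcripts of Igf2 were also present. Igf2-201 (3708 nt, start at base 142657496) had 152 and 131 counts, at 1.25 and 1.00 TPM. Igf2-205 (4722 nt) had 121 and 133 counts, at 0.770 and 0.790 TPM. Igf2-204, whose start lies 34 bases from the RefSeq start at base 142661271, was listed at 0 in both libraries, and the retained-intron model Igf2-206 near the same start had 8 and 9 counts. Protein-coding transcripts together took 65.1% of Igf2 counts in replicate 1 and 54.3% in replicate 2.

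The 2 RefSeq start sites of Igf2 to which coding transcripts with reads in both libraries could be matched are shown as the windows of 250 bases before and 50 bases from the start (RefSeq, GRCm38.p6, minus strand). Capitals mark GGGCGG or its reverse complement CCGCCC, the core of a GC box. TATAAA was also searched on both strands, and neither window held it.
Igf2 start 142666816, chr7:142666767-142667066: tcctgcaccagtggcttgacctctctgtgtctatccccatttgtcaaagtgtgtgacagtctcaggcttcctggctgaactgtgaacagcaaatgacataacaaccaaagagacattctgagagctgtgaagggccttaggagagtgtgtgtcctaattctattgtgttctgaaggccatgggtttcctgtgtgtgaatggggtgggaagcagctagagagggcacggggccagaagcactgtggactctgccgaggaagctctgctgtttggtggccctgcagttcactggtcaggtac
Igf2 start 142657496, chr7:142657447-142657746: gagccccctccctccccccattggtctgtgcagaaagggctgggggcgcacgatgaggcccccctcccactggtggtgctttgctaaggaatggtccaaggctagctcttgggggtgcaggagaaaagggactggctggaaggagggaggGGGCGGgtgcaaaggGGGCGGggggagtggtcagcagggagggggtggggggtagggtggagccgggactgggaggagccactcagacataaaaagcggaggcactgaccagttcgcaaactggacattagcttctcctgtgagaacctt
The window of the farthest upstream start had 52.3% GC and 2 CpG, close to the median GC of 52.7% over all promoter windows and below the median of 7 CpG. The other window had 63.3% GC, 7 CpG and 2 GGGCGG matches. Of the 32851 windows in the table, 35.7% held GGGCGG on either strand and 13.6% held TATAAA.

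Igfbp5 divided between the coding transcript Igfbp5-201 (6006 nt), with 82.2% of its TPM in replicate 1 and 93.1% in replicate 2, and the non-coding Igfbp5-202 (4281 nt), with 17.8% and 6.86%. Igfbp5-202 had 820 and 321 counts, so the coding transcript was at 26.6 and 28.6 TPM, higher in replicate 2, although the gene total was higher in replicate 1. Igfbp4-203, a non-coding model of 785 nt, was listed at 0 in replicate 1 but at 9.73 TPM in replicate 2. Igfbp3 kept a similar division in both libraries, with Igfbp3-202 at 91.1% and 92.6% of its TPM.

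Between the libraries, 0 of the 10 genes differed by 2-fold or more, against 7.61% of the 15814 genes whose counts in both libraries summed to 20 or more (4.76% higher in replicate 1 and 2.85% higher in replicate 2). The ratio is replicate 1 over replicate 2 from counts scaled by TMM, and its 95% interval covers only the error of counting. Reads copied by PCR do not stand for separate molecules, so the interval may be too narrow even for that error. With 1 library on each side there is no replicate check of a ratio, and no test was made. At 1.5-fold, 2 genes differed, Igfbp4 and Igfbp7, both higher in replicate 1, against 19.6% of all tested genes (11.4% higher in replicate 1 and 8.18% higher in replicate 2). All 10 members had summed counts of at least 1000, and among genes of 1000 to 10000 counts the log2 ratio had an SD of 0.38, with 0.35 above that range.

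**Figure D4:**
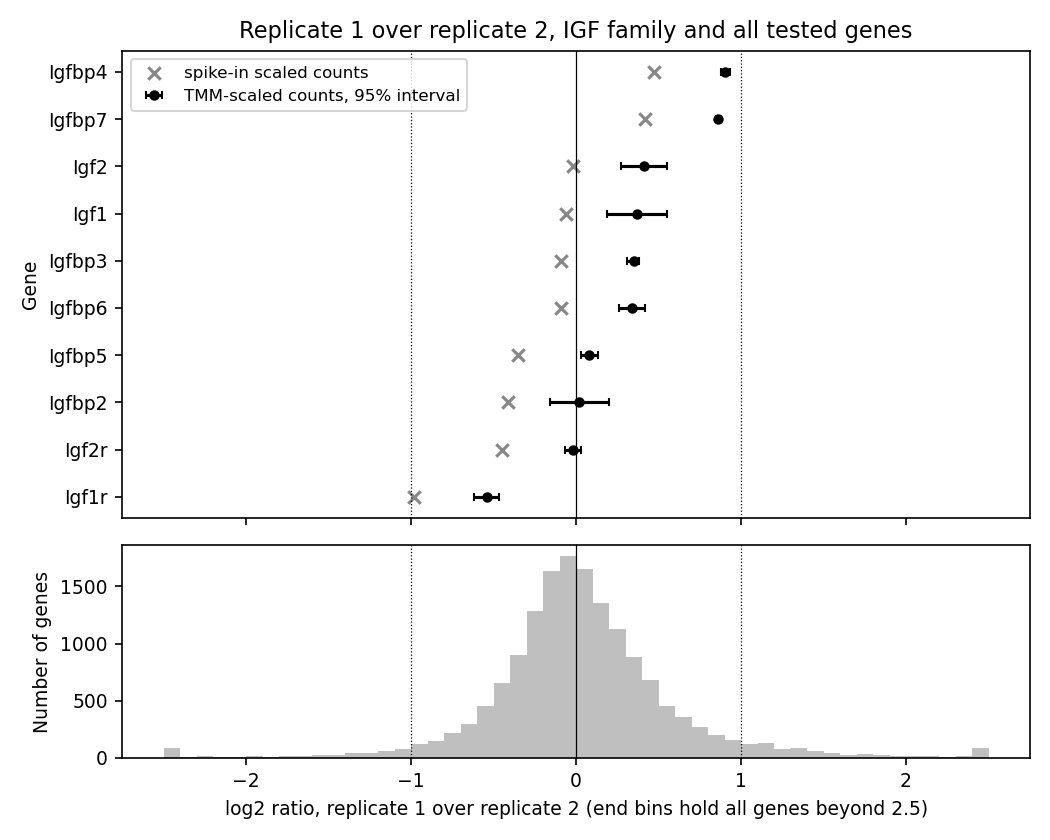
Log2 ratio of replicate 1 over replicate 2 for each IGF family gene (top; circles with 95% counting intervals from TMM scaling, crosses from spike-in scaling) above the histogram of the ratios of all 15814 tested genes (bottom), with dotted lines at 2-fold. Igfbp4 (0.90) and Igfbp7 (0.86) lie nearest the upper line, and Igf1r (-0.54) is farthest to the left.

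Igfbp4 and Igfbp7 showed the highest ratios of the family. The scaled count of Igfbp4 was 33074 in replicate 1 and 17682 in replicate 2, which gives a log2 ratio of 0.90 (0.88 to 0.93) or 1.87-fold. Igfbp7 had 328579 and 181361 scaled counts, a log2 ratio of 0.86 (0.85 to 0.87) or 1.81-fold. Among all tested genes, 9.33% lay at least as far from 0 as Igfbp4 and 10.3% as far as Igfbp7, and 353 and 401 genes lay within 0.1 of their ratios. These shares include genes of low counts, whose ratios spread more widely. Both ratios lay well beyond the SD of 0.35 among genes with 10000 or more counts. By TPM, and not by scaled counts, the ratio of Igfbp7 to Igfbp4 was 39.1 in replicate 1 and 37.8 in replicate 2. By scaled counts this ratio was instead lower in replicate 1, since Igfbp4 had the higher log2 ratio of the 2 genes.

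The promoter windows of these genes are shown in the same way (RefSeq, GRCm38.p6), with capitals for GGGCGG on either strand and for TATAAA.
Igfbp7, chr5:77407996-77408295, minus strand: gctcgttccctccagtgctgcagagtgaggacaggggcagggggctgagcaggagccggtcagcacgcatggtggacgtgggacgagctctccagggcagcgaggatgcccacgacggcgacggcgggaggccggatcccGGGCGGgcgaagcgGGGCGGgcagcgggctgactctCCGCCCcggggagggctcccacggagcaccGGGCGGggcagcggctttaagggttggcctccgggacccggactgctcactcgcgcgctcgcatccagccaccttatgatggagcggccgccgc
Igfbp4, chr11:99040994-99041293, plus strand: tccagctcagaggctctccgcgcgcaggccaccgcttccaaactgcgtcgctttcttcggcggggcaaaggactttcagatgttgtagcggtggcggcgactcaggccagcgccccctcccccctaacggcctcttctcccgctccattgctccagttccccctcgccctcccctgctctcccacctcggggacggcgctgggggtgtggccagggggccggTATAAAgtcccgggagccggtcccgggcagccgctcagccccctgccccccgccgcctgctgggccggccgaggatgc
The Igfbp7 window held 4 GGGCGG matches, 33 CpG and 73.3% GC, and no TATAAA. The Igfbp4 window held no GGGCGG, and a TATAAA that begins at -28 from the start site, with 27 CpG and 71.3% GC. Over the 14 start sites listed for the 10 genes, 6 windows held GGGCGG and 2 held TATAAA.

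The ligands, Igfbp3 and Igfbp6 had smaller positive ratios. The scaled count of Igf2 was 941.1 in replicate 1 and 708.8 in replicate 2, for a log2 ratio of 0.41 (0.27 to 0.55). Igf1 had 604.9 and 467.8 scaled counts, a log2 ratio of 0.37 (0.19 to 0.55). Igfbp3 (13769 and 10840 scaled counts) was at 0.35 (0.31 to 0.38) and Igfbp6 (2663 and 2105 scaled counts) at 0.34 (0.26 to 0.42). These 4 ratios were near 1 SD of the ratios of genes with like counts, Igf2 slightly beyond the 0.38 of its class. Between 32.1% (Igf2) and 39.1% (Igfbp6) of all tested genes lay at least as far from 0.

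The remaining members were near 0 or lower in replicate 1. Igfbp5 (6531 and 6180 scaled counts) was at 0.08 (0.03 to 0.13), Igfbp2 (516.4 and 507.6) at 0.02 (-0.16 to 0.20) and Igf2r (6826 and 6911) at -0.02 (-0.07 to 0.03). Igf1r was the member with the lowest ratio, at 2444 scaled counts in replicate 1 against 3561 in replicate 2 and a log2 ratio of -0.54 (-0.62 to -0.47) or 1.46-fold higher in replicate 2. For Igf1r, 21.9% of all tested genes lay at least as far from 0. Under TMM scaling Igf1r was thus below 0, and both ligands and the binding proteins other than Igfbp2 were above it. The intervals of Igf2r and Igfbp2 included 0, so no direction can be read for them.

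In all, 8 of the 10 genes had a higher scaled count in replicate 1 and 2 in replicate 2, with a median log2 ratio of 0.34 against -0.001 over all tested genes. The interval left out 0 for 8 of the 10 genes and for 61.3% of all tested genes. Scaling by the spike-ins moved the median of all genes by -0.43, and only Igfbp4 (0.47) and Igfbp7 (0.42) then remained higher in replicate 1. On that scale Igf1, Igf2, Igfbp2, Igfbp3, Igfbp5 and Igfbp6 changed sign, Igf1r was at -0.98 and Igf2r at -0.45. The differences among members were the same under either scaling, while the sign of those 6 genes depended on it.

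Markers of several cell types also differed between the libraries. Summed over the 6 adipocyte markers, of which all were detected, the level was 12196 TPM in replicate 1 and 5256 TPM in replicate 2. Among them 5 of 6 were higher in replicate 1 under TMM scaling, with a median log2 ratio of 0.83, or 0.39 under spike-in scaling. Lep went the other way, at -0.55 (-0.68 to -0.43). Cfd made up most of the sum, at 9884 and 3984 TPM. Adipocyte transcripts were thus part of the sampled RNA, and the IGF family levels given here are those of the whole sample. The 6 cortex markers summed to 19859 and 27407 TPM, all 6 higher in replicate 2 with a median of -0.58, or -1.01 under spike-in scaling. Endothelial markers summed to 816 and 712 TPM, with all 6 higher in replicate 1 under TMM scaling and a median of 0.17. The smallest of these ratios were Tek at 0.00 (-0.14 to 0.15) and Emcn at 0.03 (-0.09 to 0.15). Under spike-in scaling the endothelial median was -0.26, so its direction depended on the scaling. The part of these cell types in the IGF family ratios was not tested, and in bulk tissue fewer cells of a type and less RNA per cell cannot be told apart.

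Markers of the other cell types differed in size and direction. Capsule and fibroblast markers summed to 256 and 262 TPM (6 of 7 higher in replicate 1), chromaffin markers to 3619 and 3459 TPM (3 of 5), macrophage markers to 469 and 440 TPM (3 of 6), smooth muscle and pericyte markers to 122 and 142 TPM (5 of 6). Schwann markers summed to 17.1 and 10.5 TPM, with all 4 higher in replicate 1 and a median log2 ratio of 0.64. The median was 0.23 for smooth muscle and pericyte and 0.17 for capsule and fibroblast markers. Under spike-in scaling these medians were 0.21, -0.20 and -0.26. Liver markers were low, summing to 6.19 TPM in replicate 1 against 35.2 TPM in replicate 2, all 5 higher in replicate 2 as the cortex markers were, with Ttr at 0 counts in replicate 1. Igf1 and Igfbp2, which the liver also expresses, had log2 ratios of 0.37 and 0.02, against a median of -2.77 for the liver markers. Kidney markers summed to 0.140 and 0.0100 TPM, with Kap and Slc12a1 at 0 in both, and erythroid markers to 2454 and 3282 TPM. Their part in the ratios was not tested.

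Around the family, 48 genes in 7 lists of IGF action were examined, of which 38 were detected in both libraries and 43 had enough counts to be compared. Of these 43 genes, 1 differed by 2-fold or more between the libraries and it was higher in replicate 1, against 4.76% of all tested genes in that direction. It was Pappa, the protease that cuts the Igfbp4 protein, at 24 counts in replicate 1 against 9 in replicate 2, or 0.06 and 0.02 TPM, and a log2 ratio of 1.51 (0.41 to 2.86). Otherwise 21 of the 43 genes, Pappa included, had the higher scaled count in replicate 1 and 22 in replicate 2, with a median log2 ratio of -0.02.

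**Figure D5:**
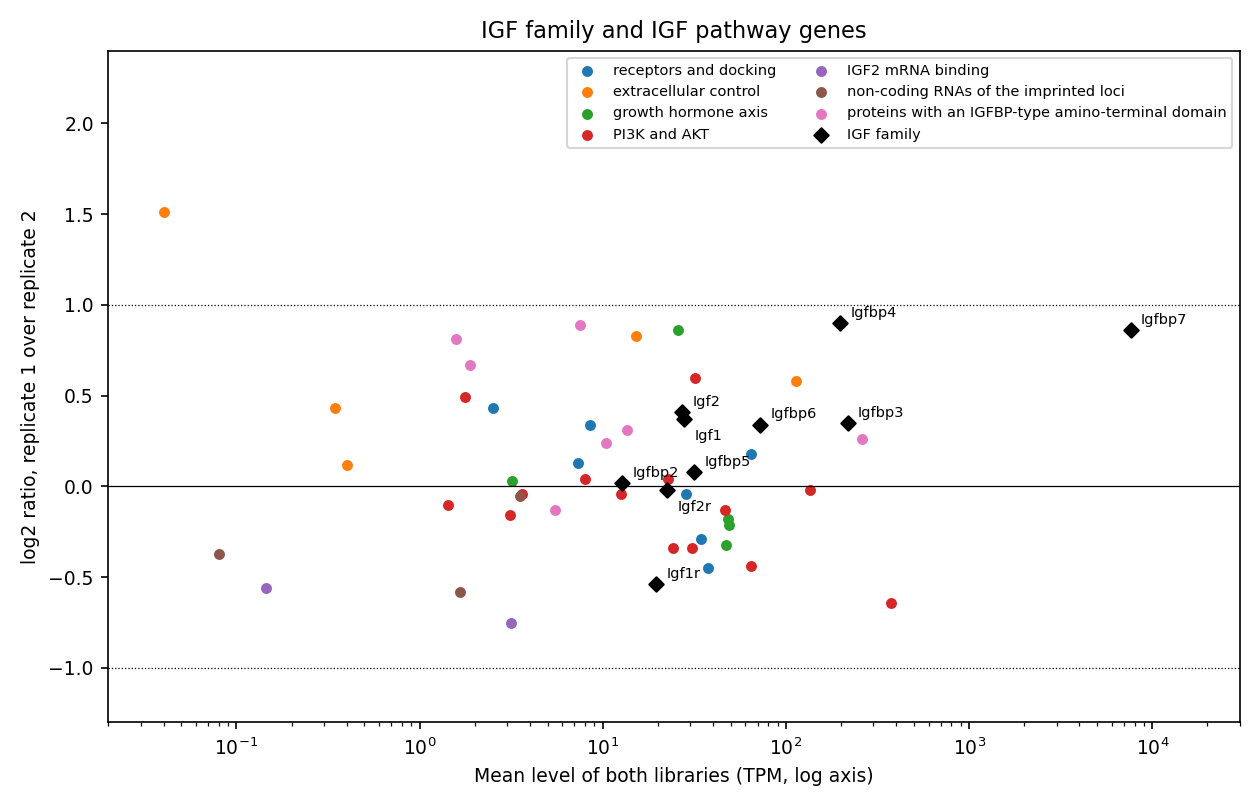
Log2 ratio of replicate 1 over replicate 2 against the mean TPM (log axis) for the 10 IGF family genes (black diamonds) and the 43 compared genes of the 7 IGF pathway lists (coloured circles), with dotted lines at 2-fold. Only Pappa, the orange point at the far left, lies beyond a dotted line, and Igfbp7 is the farthest to the right.

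The receptor and docking list had all 7 genes detected and summed to 177 and 189 TPM. Shc1, an adaptor for activated receptors, was its highest gene at 67.8 and 61.5 TPM (64.7 ± 4.41 TPM). Insr, the insulin receptor, which can form hybrids with the IGF1 receptor, was at 28.8 and 39.8 TPM and exceeded Igf1r in both libraries. Both receptors were lower in replicate 1, with log2 ratios of -0.29 (-0.34 to -0.23) for Insr and -0.54 for Igf1r. Insr here, Igfbp1 above, and Ghr, Stat5a, Igfals, Igfbpl1, H19 and Igf2os below, were chosen after their values were seen, as neighbours of the family in function or position.

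Downstream, all 14 PI3K and AKT genes were detected, and 10 of them had the higher scaled count in replicate 2. Akt1, a kinase that carries the signal of the receptor, was the highest at 292 and 459 TPM (376 ± 118 TPM), a log2 ratio of -0.64 (-0.66 to -0.62). Its level exceeded that of Igf1r by more than the libraries differed.

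Genes that control the ligands outside the cell were mostly low, and only 2 of the 8 were detected. Htra1, a secreted protease able to cut binding proteins, was the highest at 135 and 90 TPM (113 ± 32.1 TPM). Igfals, which stabilises the plasma complex of IGF with IGFBP3, was the other detected gene at 19.1 and 11.1 TPM. Igfbpl1 had 0 counts in both libraries, where 3 counts would correspond to 0.0630 CPM in replicate 1 and 0.0567 CPM in replicate 2. Under TMM scaling all 5 genes with enough counts had positive log2 ratios, against 49.9% of all tested genes. Their median was 0.58, or 0.14 under spike-in scaling. The intervals of Stc1 (0.12, -0.46 to 0.71) and Stc2 (0.43, -0.19 to 1.06) included 0, so no direction can be read for them. Under spike-in scaling Stc1 was at -0.31 and Stc2 at -0.00.

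All 5 genes of the growth hormone axis, which drives Igf1 in liver, were detected. By mean level the transcription factor gene Stat5b came first at 44.1 and 53.4 TPM (48.8 ± 6.56 TPM), with values that overlapped those of its relative Stat5a at 45.4 and 50.9 TPM (48.1 ± 3.89 TPM). Ghr, the growth hormone receptor, was at 33.7 and 17.9 TPM, a log2 ratio of 0.86 (0.75 to 0.96). Under spike-in scaling Ghr was at 0.42. Of the 5 genes, 2 had the higher scaled count in replicate 1 and 3 in replicate 2, with Stat5b at -0.21 (-0.25 to -0.17).

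The IGF2 mRNA binding proteins, which in the fetus bind Igf2 messages, were low: Igf2bp2 was the highest at 2.79 and 3.51 TPM (3.15 ± 0.509 TPM) and the single one of 3 detected. Of the non-coding RNAs of the imprinted loci, Airn was the highest at 3.48 and 3.61 TPM (3.54 ± 0.0919 TPM) and overlaps Igf2r over 28354 bases on the opposite strand. H19, which lies 72622 bases from Igf2 and shares its enhancers, was at 1.34 and 2.01 TPM from 54 and 90 counts. Igf2os overlaps Igf2 over 7124 bases on the opposite strand and had 11 and 16 counts. The sources used here do not say whether the counting used the strand of the reads, and if it did not, reads of Igf2 and Igf2os, or of Igf2r and Airn, could be exchanged.

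Among 8 other genes whose proteins carry an IGFBP-type amino-terminal domain, 7 were detected. The highest was Ccn2, a matrix-associated growth factor gene, at 280 and 239 TPM (259 ± 29.0 TPM). Its level was near those of Igfbp3 and Igfbp4 and far below that of Igfbp7. In this list 6 of 7 compared genes were higher in replicate 1, with a median log2 ratio of 0.31, or -0.12 under spike-in scaling.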

How the data were processed

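Poly(A) RNA-seq of the adrenal gland was available as gene and transcript tables for 2 libraries of 1 group, with replicate numbers from the labels. Per the file headers, the deposited tables give an expected count, TPM, FPKM and posterior means per gene and transcript, and the deposited percent of each transcript within its gene. Per the deposited readme files, they rest on mm10 with annotation M4. No source used here names the aligner or the quantifier. An expected count is the authors' estimate of read pairs and can be fractional. The authors' TPM has a constant sum that includes the spike-ins, and the authors' FPKM to length and fragments. Deposited mm9 tables of contigs and junctions were not used here.

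Names and positions came from GENCODE M21 (GRCm38), matched by identifier without version for 42462 of 43346 mouse genes. The depth was 48059863 expected counts for replicate 1 and 53294872 for replicate 2, of which ERCC spike-ins took 0.654% and 0.485%, which were left out of scaling. Counts were rounded, scaled by TMM factors of 1.00 and 1.00 from edgeR 4.0.16 (R 4.3.3), and compared, with a prior count of 0.5, over genes of 20 or more counts in sum. The 95% intervals are Clopper-Pearson (scipy 1.17.1). A gene at 1 TPM or more in both libraries was called detected, and 2-fold was the threshold of a call. DESeq2 1.42.0 size factors, total counts, spike-ins, posterior means, other filters and leaving out a library were alternatives. The procedure was checked on simulated counts. Cysteine stretches and promoter letters were searched in GENCODE coding sequences and RefSeq windows, where all 10 genes matched. Named genes are the 10 members, the listed pathway genes past 2-fold and the highest gene of each list by mean TPM, and 8 further pathway genes were named after their values were seen. The members, lists and rules were chosen with earlier results of these data known.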

Additional observations from a re-analysis of the deposited data

How the results depend on the processing

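The order of the 10 mean levels was the same in all 10 places under posterior means, FPKM and TPM rescaled without spike-ins. It kept 6 to 7 places when a library was left out, and 3 places with the length of the longest transcript. The count of members at least 2-fold apart stayed at 0 under every other scaling and filter run and was 2 at 1.5-fold. Among the pathway lists, the count of 1 became 4 under spike-in scaling, where Akt1, Igf2bp2 and H19 joined at -1.07, -1.18 and -1.01, all higher in replicate 2. It was 4 with no filter on low counts and 9 at 1.5-fold. In place of TPM, expected counts gave 1.54 for Igf2 over Igf1 (0.975 by TPM), 2.37 for Igf2r over Igf1r (1.20 by TPM) and 217 for binding proteins over ligands (146 by TPM), since counts are not divided by length. Without Igfbp7 the last ratio was 9.68. With the length of the longest transcript, Igf2 over Igf1 was 2.33 and binding proteins over ligands 1003. Leaving out a library gave 0.946 to 1.00, 0.982 to 1.42 and 131 to 161 for these ratios. The log2 ratio of Igfbp2 was -0.02 on log2(TPM + 1). Longest-transcript lengths, the family without Igfbp7 and the shares by exon or start were chosen after seeing the data. No paired analysis was possible because there is 1 group, and without either library no ratio between libraries exists. Ratios of low genes such as Pappa and Igf2os are limited by depth, and the Igf1 and Igf2 transcript shares rest on fewer than 1000 counts a library.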
